A study of Mus musculus with 10 samples.

Results

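The microtubule motor genes of the developing mouse neocortex were described across 5 stages: kinesins, kinesin light chains, cytoplasmic dynein, its cofactor dynactin and the dynein regulators around Lis1. They were taken from the deposited table by name, as every gene whose symbol begins with Kif and a digit or c, with Klc and a digit, or with Dync, Dynl or Dctn, together with Pafah1b1, Nde1 and Ndel1. The rule found 44 of the 6147 listed genes: 9 mitotic kinesins, 11 transport kinesins, 3 other kinesins, 3 kinesin light chains, 5 chains of dynein-1, 2 dynein light chains, 2 chains of dynein-2, 6 dynactin subunits and the 3 genes of the Lis1 group. The rule uses gene names alone, but it and the roles were chosen with earlier results of these data known.

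All animals were wild-type mice of CD1, an outbred laboratory strain, and no treatment separated the groups. Polyadenylated RNA of the neocortex was sequenced before birth, at gestation days E12.5 and E14 and then at E15.5 and E17, and on the day of birth (P0), with 2 libraries per stage, 10 in all. The series describes the samples as biological duplicates, but the labels give neither the number of animals per library nor whether tissue was pooled, so p-values measure the spread between these libraries. RNA was taken from tissue lysates cleared by centrifugation. Values were TPM, a share of the transcripts of a library after division by gene length. Levels may be compared between genes only roughly, as the gene lengths used are not known.

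Kinesins and dyneins use ATP to step along microtubules, most kinesins towards the plus end and dynein towards the minus end. One set of kinesins builds the spindle and the cleavage furrow of dividing cells, and another carries vesicles, organelles and RNA along axons and dendrites. Dynein works with dynactin and Lis1, and in the embryonic cortex it moves the nucleus, both in dividing progenitors and in migrating neurons; loss of Lis1 function causes the smooth-brain malformation lissencephaly.

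In each library the listed genes held 68.9% to 71.7% of the TPM total, and read numbers are not known for these libraries. Of the listed genes, 6048 reached a mean of 1 TPM and were tested with limma on log2(TPM + 1), and all 44 motor genes were among them. A gene was called where the p adjusted over all genes tested was under 0.05. The duplicates correlated with a Pearson r between 0.996 and 0.999 across genes at 4 stages and 0.989 at E17, where replicate 1 stood apart: its difference from replicate 2 rose with transcript length (Spearman rho of 0.524 over 6047 genes, a description across genes), and 37 of the 44 motor genes were higher in it. At P0 the difference went the other way with length (rho of -0.449), and 13 of the 44 were higher in replicate 1, with a median of -0.13 on the log2 scale. The counts of the steps to and from E17, and the values of Dync1h1, Nde1 and the mitotic kinesins there, are also given without E17 replicate 1. The 6 cortical progenitor and 8 neuronal markers in the table, among them Emx1, Pax6 and Tbr1, were found at every stage. Markers of tissue next to the cortex were high at E12.5 and E14 alone: the summed choroid plexus markers (2 of 6 in the table) were between 303 and 1517 TPM at those stages and at most 5.26 TPM later, and erythroid (3 of 7), meningeal (5 of 6) and vascular (1 of 7) markers fell between E14 and E15.5 and summed to at most 9.84, 6.63 and 3.30 TPM from then on, with the embryonic globin Hbb-bh1 at 0 at P0. The one microglial marker (1 of 6) stayed between 4.66 and 8.93 TPM, and 0 of 6 motile ciliated markers were in the table. Their part in the results between these stages was not tested. In bulk tissue, fewer cells of a type and less RNA per cell cannot be told apart.

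Across the 5 stages, 41 of the 44 motor genes changed by the limma F test, against a background of 82.9% of all genes tested. The 3 that did not pass were Dynll2 (adjusted p = 0.535), Kif21b (adjusted p = 0.196) and Kif1b (adjusted p = 0.0767). Between E12.5 and P0, 21 motor genes rose, where 27.1% of all genes tested were called higher, and 19 fell, where 51.0% were called lower. The median log2 change was 0.20 over the motor genes and -0.27 over all genes tested. Median-of-ratios scaling, which brought the latter to -0.01, gave 24 higher and 15 lower motor genes. The shares of all genes called under that scaling are not given here. The roles moved apart: 9 of 9 mitotic kinesins fell, whereas 6 transport kinesins rose and 4 fell, and 11 of the 18 dynein, dynactin and Lis1 genes rose and 4 fell.

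**Figure D1:**
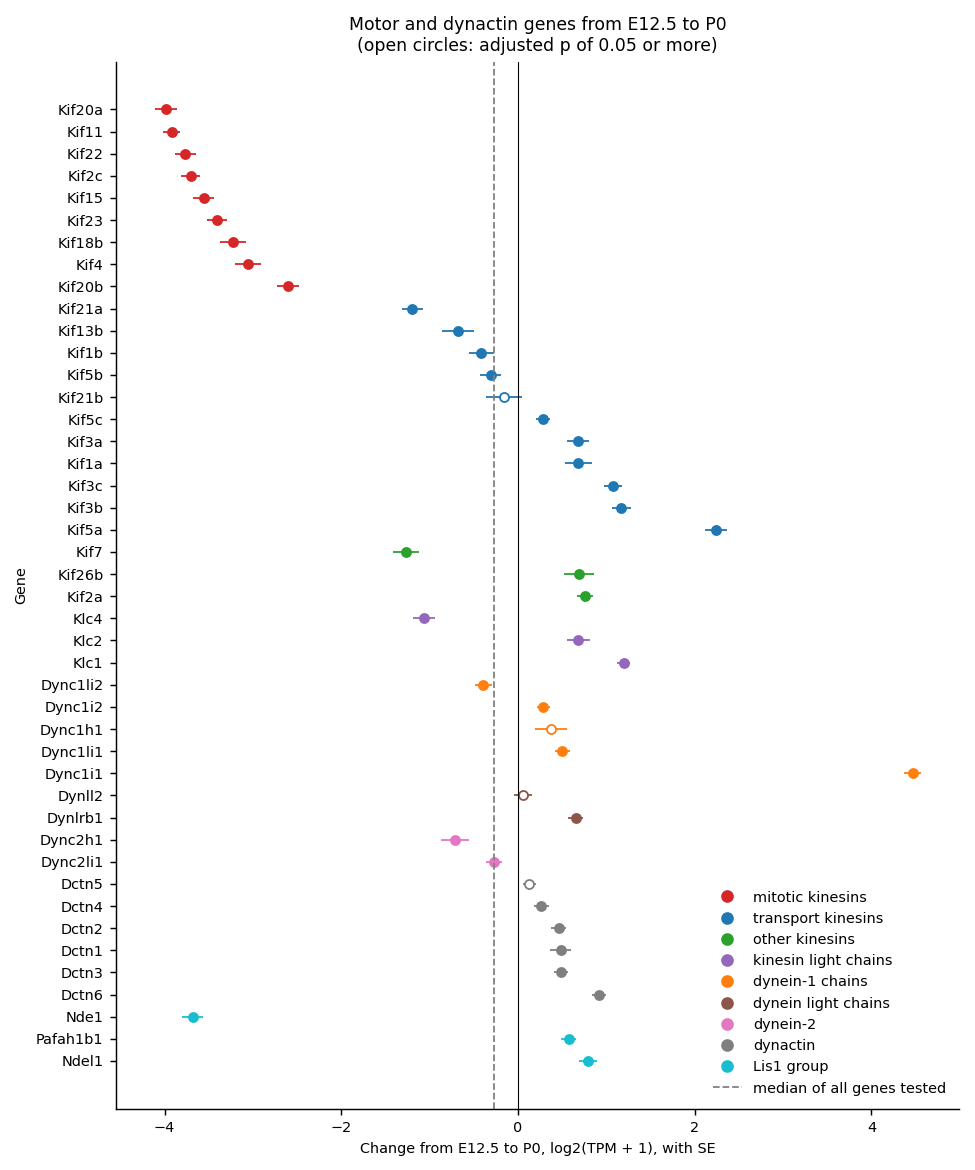
Change from E12.5 to P0 of each of the 44 motor genes, in log2(TPM + 1), with the SE from limma; colours give the role, filled points have an adjusted p under 0.05 and the dashed line is the median of all genes tested (-0.27). The 9 mitotic kinesins lie between -3.99 and -2.61, Nde1 lies among them at -3.68, and Dync1i1 is at 4.47.

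The 9 mitotic kinesins found by the rule lost nearly all of their RNA share by birth. Their summed TPM were 304 and 315 in the E12.5 libraries, 218 and 213 at E14, 82.1 and 79.5 at E15.5, 54.4 and 45.0 at E17, and 16.7 and 18.2 at P0. No library of one stage reached the range of the next, so the order of the stages held in both replicates. Each of the 9 fell from E12.5 to P0, with log2 changes between -3.99 (Kif20a) and -2.61 (Kif20b) and a median of -3.56. Of the genes listed for this role, Kif14, Kif18a, Kifc1 and Kifc5b are not analysed here.

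Kif11, the bipolar motor that slides spindle poles apart and the target of many antimitotic drugs, was the most abundant of them at E12.5. Its values were 62.9 and 60.7 TPM at E12.5, 42.2 and 40.9 at E14, 16.1 and 15.3 at E15.5, 9.33 and 8.83 at E17, and 2.95 and 3.35 at P0. The libraries of the 5 stages did not overlap, and the P0 mean was 19.6-fold below the E12.5 mean (log2 change -3.92, SE 0.10, adjusted p = 3.4e-11, limma). Kif20a, which brings the chromosomal passenger complex to the midzone of the late spindle, had 42.4 and 46.5 TPM at E12.5, 30.4 and 31.5 at E14, 9.44 and 9.68 at E15.5, 7.03 and 5.16 at E17, and 1.96 and 1.78 at P0, a 23.8-fold fall between stages that did not overlap. About 29.3% of its exon bases lie opposite exons of Cdc23, another mitotic gene; use of strand in the counting was not given in the sources used here. Kif20b, which acts in the last steps of cytokinesis, was the lowest of the group and went from 10.6 and 10.02 TPM to 0.715 and 1.01 TPM, an 11.95-fold fall.

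The other 6 lay between these. Kif22 (a chromokinesin that pushes chromosome arms outwards) had 55.8 ± 2.51 TPM at E12.5 and 3.17 ± 0.251 at P0 (SD, n = 2). Kif2c, a depolymerase that corrects faulty attachments at centromeres, had 39.3 ± 1.99 and 2.09 ± 0.125 TPM. Kif23, the motor subunit of the centralspindlin complex, had 28.2 ± 0.038 and 1.75 ± 0.0449 TPM. The remaining ones were Kif15, which helps to hold the bipolar spindle, Kif18b, which trims astral microtubules, and Kif4, a chromokinesin that works with Prc1 at the midzone; they started between 22.0 and 25.4 TPM and ended between 1.24 and 1.77 TPM. Relative to E12.5, the 9 genes stood at 66.6% to 77.5% in the E14 mean, 21.5% to 30.5% in that of E15.5, 13.7% to 23.9% in that of E17 and 4.20% to 8.37% in that of P0. Their ranges at successive stages met only between E15.5 and E17.

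The decline was uneven over time. Of all genes tested, 4.78%, 33.3%, 10.6% and 28.8% were called lower in the 4 steps in order of age. Their median log2 changes were -0.06, -0.13, 0.01 and -0.10. From E12.5 to E14, 6 of 9 mitotic kinesins fell, with a median log2 change of -0.50. From E14 to E15.5 all 9 fell, with a median of -1.30. From E15.5 to E17, 8 of 9 fell (median -0.59; Kif20b changed by -0.22 and did not pass), and from E17 to P0 all 9 fell again (median -1.16). Without E17 replicate 1 the medians of the last 2 steps were -0.72 and -1.03. The calls of the first step depended on single libraries. They were lost without any one library of E12.5 or E14 and became more frequent without either E17 library. In the step from E15.5 to E17, calls were lost without either E15.5 library. With only the libraries of these stages, 0 of 9 passed in limma (8 had an unadjusted p under 0.05). The shares of all genes called in these fits are not given here, so they describe the calls and not the size of the fall.

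Genes that work with these motors moved the same way. Of all genes tested, 51.0% were called lower from E12.5 to P0, with a median log2 change of -0.27. Of 14 spindle partners, a list that includes the passenger complex, Prc1, Tpx2 and Racgap1, all 14 fell from E12.5 to P0 (median -3.71), from Bub1b, a spindle checkpoint kinase, at -4.40 to Numa1, which anchors dynein at spindle poles, at -1.27. The 12 dividing-cell markers in the table also fell (12 of 12, median -3.98), and their summed TPM went from 1760 and 1824 at E12.5 to 187 and 191 at P0. This list shares Bub1b and Aurkb with the spindle partners. Cenpe, among the spindle partners, is itself a mitotic kinesin whose name the rule does not match (log2 change from E12.5 to P0 -3.24). How much of the fall of the mitotic kinesins goes with fewer dividing cells was not tested.

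Genes that peak in mitosis often carry a cell cycle homology region (CHR element) near their start, bound by the DREAM and MuvB complexes, and a CCAAT box, bound by the factor NF-Y. Promoter windows of 300 bases (250 before the annotated start and 50 from it onward) were taken from RefSeq on GRCm38.p6 and matched 33 of the 44 genes by symbol; Dctn4, Dctn6, Dync1li2, Dync2li1, Dynll2, Kif13b, Kif20a, Kif21b, Kif5a, Kif5b and Klc2 had no window. The letters TTTGAA or TTCGAA (CHR) and CCAAT were searched on both strands. The stretches of 7 mitotic kinesins are shown because their matches lie close to the start; those of Nde1, Kif26b and Dync1i1 are shown for contrast, as a fallen dynein regulator, a kinesin that rose and the gene that rose most. Each runs 5′ to 3′ from 120 bases before the start to 24 bases after it, and capitals mark the matches (a match on the other strand reads TTCAAA or TTCGAA for CHR and ATTGG for CCAAT).
Kif11 (chr19:37376262-37376406, plus strand): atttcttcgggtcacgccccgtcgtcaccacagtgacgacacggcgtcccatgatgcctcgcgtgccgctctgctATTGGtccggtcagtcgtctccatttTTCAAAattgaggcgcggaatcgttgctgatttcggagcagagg
Kif15 (chr9:122950961-122951105, plus strand): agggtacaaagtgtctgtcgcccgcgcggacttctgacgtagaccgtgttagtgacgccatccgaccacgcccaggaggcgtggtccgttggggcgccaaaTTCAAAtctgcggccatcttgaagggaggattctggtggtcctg
Kif18b (chr11:102925100-102925244, minus strand): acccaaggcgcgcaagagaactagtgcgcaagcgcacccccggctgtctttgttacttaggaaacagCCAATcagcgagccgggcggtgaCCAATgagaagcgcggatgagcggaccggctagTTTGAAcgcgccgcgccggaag
Kif20b (chr19:34922238-34922382, plus strand): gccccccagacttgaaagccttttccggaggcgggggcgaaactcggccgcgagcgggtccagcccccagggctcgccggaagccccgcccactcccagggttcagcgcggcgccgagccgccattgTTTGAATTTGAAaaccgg
Kif22 (chr7:127042396-127042540, minus strand): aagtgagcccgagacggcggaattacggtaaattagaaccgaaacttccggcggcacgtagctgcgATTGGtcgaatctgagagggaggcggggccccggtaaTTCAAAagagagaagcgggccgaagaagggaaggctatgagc
Kif23 (chr9:61946775-61946919, minus strand): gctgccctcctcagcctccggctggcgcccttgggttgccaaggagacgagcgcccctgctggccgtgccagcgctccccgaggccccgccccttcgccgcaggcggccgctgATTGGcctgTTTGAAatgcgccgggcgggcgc
Kif4 (chrX:100625945-100626089, plus strand): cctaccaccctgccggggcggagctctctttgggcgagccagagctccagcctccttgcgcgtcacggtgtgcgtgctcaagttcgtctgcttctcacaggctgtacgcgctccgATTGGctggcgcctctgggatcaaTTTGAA
Nde1 (chr16:14163155-14163299, plus strand): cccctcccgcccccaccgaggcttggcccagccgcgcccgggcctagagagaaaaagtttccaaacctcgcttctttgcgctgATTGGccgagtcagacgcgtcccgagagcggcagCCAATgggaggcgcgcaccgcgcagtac
Kif26b (chr1:178529005-178529149, plus strand): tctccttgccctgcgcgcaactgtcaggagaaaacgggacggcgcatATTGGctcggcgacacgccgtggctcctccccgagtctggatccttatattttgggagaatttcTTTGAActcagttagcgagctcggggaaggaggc
Dync1i1 (chr6:5725519-5725663, plus strand): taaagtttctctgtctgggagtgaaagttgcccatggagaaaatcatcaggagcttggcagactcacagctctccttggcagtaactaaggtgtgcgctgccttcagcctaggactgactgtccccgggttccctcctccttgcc

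A CHR match lay in the window of 8 of 8 mitotic kinesins that had one, in 4 of the other 25 motor genes with a window (16.0%: Dctn1, Dctn3, Kif1a and Kif26b), in 19.2% of all 32851 windows and in 15.7% of the 4841 listed genes that had one. In 7 of the 8 mitotic kinesins a match lay between 30 bases before and 24 bases after the start, which held for 3.13% of all windows; this narrower stretch was chosen after the positions were seen. Kif2c was the eighth, with its match at -103, and its RefSeq start lies inside the gene as GENCODE annotates it. The RefSeq starts of Kif4, Kif15 and Kif22, among the 7, also lie inside their GENCODE genes. For Kif4 the whole stretch shown does, as it begins at 100625945 and the gene at 100625737. Kif20b carries a pair of adjoining matches at 7 and 13 bases after the start. A CCAAT match was in 5 of the 8 windows. It was in 37.4% of all windows, 42.6% of the listed genes with one and 40.0% of the other 25 motor genes. Both motifs were in 5 of 8, against 7.52% of all windows, 6.75% of those listed genes and 8.0% of the other 25. Nde1 has 2 CCAAT matches and no CHR match in its window, and Kif26b, which rose from E12.5 to P0, has both motifs. The Dync1i1 window holds neither. These matches describe letters in a window and no binding was measured.

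**Figure D2:**
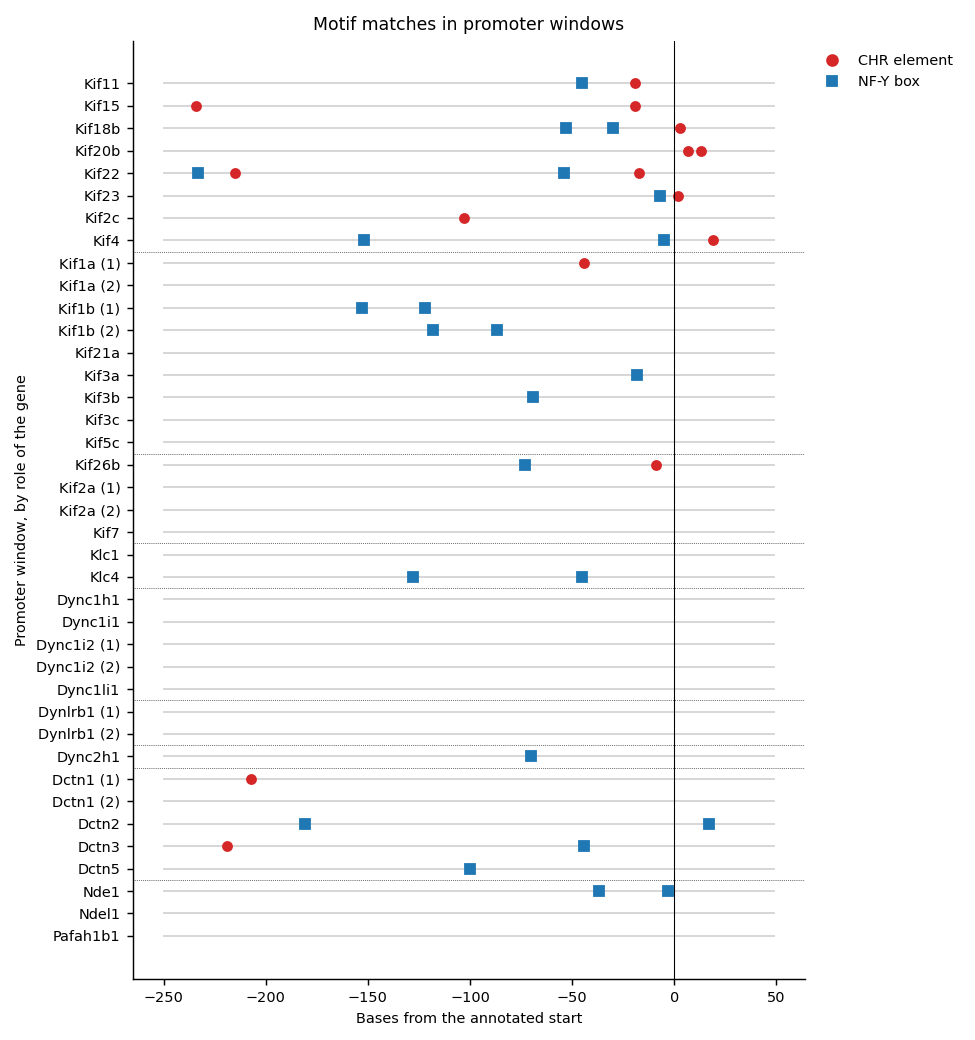
Positions of CHR (red circles) and CCAAT, or NF-Y box, matches (blue squares) in the promoter windows of 33 motor genes, in bases from the annotated start at 0; grey lines are the windows, numbers in brackets separate 2 windows of one gene, and dotted lines separate roles. Red circles sit near the start in 7 of 8 mitotic kinesins and in Kif26b, and most other windows hold none.

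The transport kinesins did not move as a block. Their summed TPM were 856 and 916 at E12.5, 918 and 927 at E14, 1088 and 1081 at E15.5, 1457 and 1085 at E17, and 1084 and 1199 at P0. The E12.5 and E14 libraries lay below all later ones, and the later ones overlapped, with E17 replicate 1 alone far above the rest. From E12.5 to P0, 6 of 11 rose, 4 fell and Kif21b did not pass, and the median log2 change was 0.28. Of all genes tested, 27.1% rose and 51.0% fell. Set against the mitotic group, the transport group gained: mitotic kinesins made up 26.2% and 25.6% of the TPM of both groups at E12.5, 19.2% and 18.7% at E14, 7.02% and 6.85% at E15.5, 3.60% and 3.98% at E17, and 1.51% and 1.49% at P0. Kif1c, Kif13a, Kif16b, Kif17, Kifc2 and Kifc3 are not analysed here.

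Kinesin-1, the main plus-end motor of axons, has 3 heavy chain genes, of which Kif5b is broadly expressed and Kif5a and Kif5c are enriched in neurons. Kif5a (chr10:127225696-127263348 on GRCm38) had 28.6 and 30.6 TPM at E12.5, 42.4 and 42.0 at E14, 94.2 and 99.2 at E15.5, 147 and 109.9 at E17, and 135 and 154 at P0. It rose 4.86-fold from E12.5 to P0 (log2 change 2.24, SE 0.12, adjusted p = 1.1e-08, limma), and the libraries of E12.5, E14 and E15.5 did not overlap, while those of E17 and P0 did. Kif5c was the most abundant of the 3 at every stage, with 206 and 213 TPM at E12.5, 198 and 203 at E14, 237 and 237 at E15.5, 303 and 263 at E17, and 249 and 261 at P0. Its rise from E12.5 to P0 was small (log2 change 0.28, adjusted p = 0.0063). Kif5b had 98.5 and 96.1 TPM at E12.5, 88.0 and 93.4 at E14, 81.1 and 76.1 at E15.5, 65.1 and 73.2 at E17, and 68.6 and 89.2 at P0. Its P0 libraries lay apart and overlapped those of E14, E15.5 and E17, and its fall (log2 change -0.31, adjusted p = 0.025) was lost without P0 replicate 1 (-0.12, adjusted p = 0.27), without either E12.5 library (adjusted p = 0.10 and 0.073) and under median-of-ratios scaling (-0.04, adjusted p = 0.79).

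Within kinesin-1 the shares shifted towards Kif5a. Kif5a made up 8.81% ± 0.303 of the TPM of the 3 chains at E12.5 and 30.1% ± 0.502 at P0, Kif5b went from 28.9% ± 0.878 to 16.4% ± 1.79, and Kif5c went from 62.3% ± 0.575 to 53.5% ± 2.29 (SD, n = 2). The log2 ratio of Kif5a to Kif5b rose by 2.55 from E12.5 to P0 and differed over the 5 stages (exact permutation test over all ways to pair the 10 libraries, adjusted p = 0.00847 over 8 ratios). The ratio of Kif5c to Kif5b was 0.60 higher at P0 than at E12.5. It also differed over the 5 stages (exact permutation test, adjusted p = 0.0180). A ratio shows unequal change of a pair, not which of them was steady.

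Kinesin-2 pairs Kif3a with Kif3b or with Kif3c and binds cargo through Kifap3. Kif3b had 36.7 and 39.3 TPM at E12.5, 40.1 and 40.0 at E14, 50.0 and 50.6 at E15.5, 63.7 and 52.9 at E17, and 80.9 and 93.1 at P0. Its increase was spread to birth and P0 lay above all other libraries (log2 change 1.17, SE 0.10, adjusted p = 8.1e-07, limma). Kif3c had 76.0 and 86.1 TPM at E12.5, 103 and 97.3 at E14, 172 and 169 at E15.5, 207 and 166 at E17, and 164 and 179.5 at P0, so that most of its increase came before E15.5 (log2 change to P0 1.08, adjusted p = 2.1e-06). The log2 ratio of Kif3c to Kif3b was 1.07 at E12.5, reached 1.74 at E15.5 and was 0.98 at P0; it differed over the stages (exact permutation test, adjusted p = 0.00282), although P0 and E12.5 differed by only -0.09. Exons of genes on the other strand cover 43.3% of the exon bases of Kif3c, so part of its reads may not be its own if strand was not used. The same holds for smaller parts of Kif7 (20.3% of exon bases, opposite Ticrr and 9330171B17Rik), Kif2a (19.2%, opposite Dimt1), Kif4 (15.1%), Dctn6 (11.8%) and Klc2 (10.6%). Kif3a rose by 0.68 on the log2 scale, from 28.1 ± 1.53 to 45.9 ± 7.91 TPM (SD, n = 2).

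**Figure D3:**
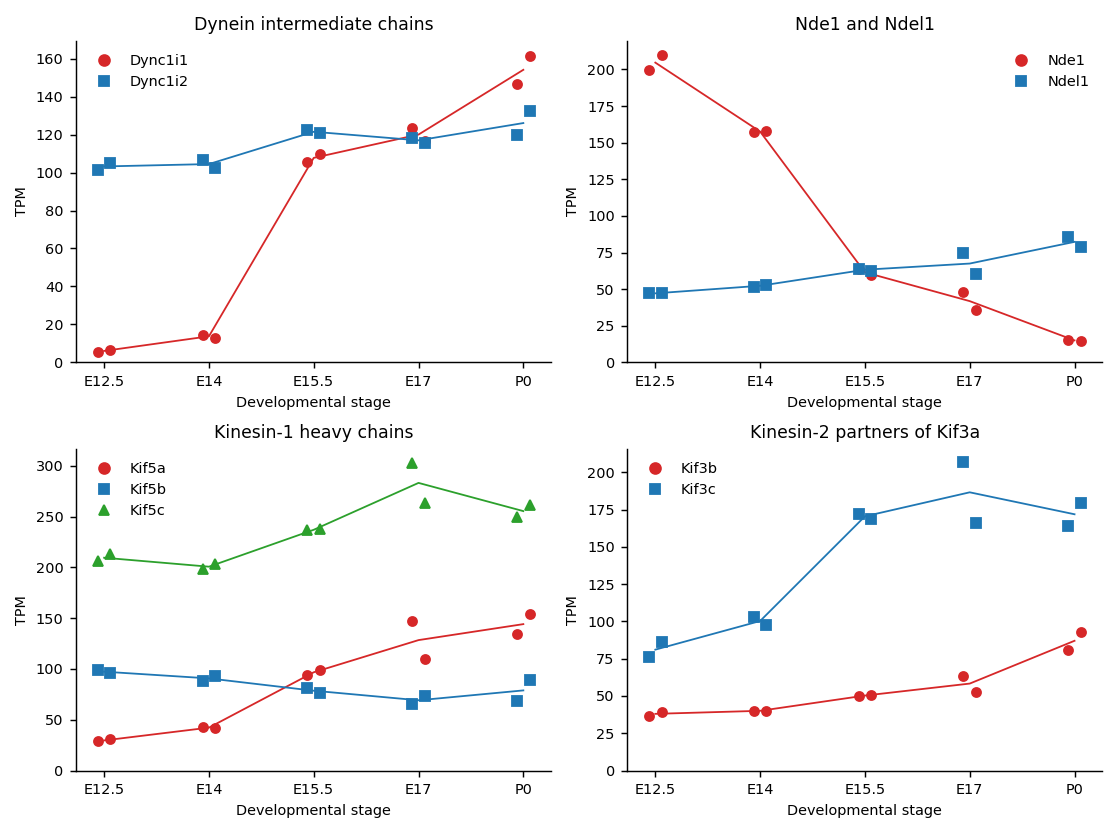
TPM of related motor genes by developmental stage, with axes from 0; points are the 2 libraries of a stage and lines join the stage means. Dync1i1 reaches Dync1i2 at E17, Nde1 meets Ndel1 at E15.5, Kif5a passes Kif5b at E15.5, and Kif3c levels off at E15.5 while Kif3b is highest at P0.

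Kinesin-3 motors, which carry synaptic vesicle precursors and other membranes, divided. Between E12.5 and P0, Kif1a gained 0.68 in log2 (62.0 ± 6.10 to 99.8 ± 0.806 TPM; SD, n = 2), while Kif1b fell by 0.41 (95.6 ± 3.45 to 71.5 ± 4.53 TPM), a fall that was lost when any one library of E12.5 or of P0 was left out (adjusted p between 0.051 and 0.13) and under median-of-ratios scaling (-0.14). Kif1a made up 39.3% ± 1.49 of the TPM of the pair at E12.5 and 58.3% ± 1.74 at P0. Kif13b had 4.29 and 4.75 TPM at E12.5, 4.21 and 4.50 at E14, 3.60 and 3.46 at E15.5, 6.16 and 3.38 at E17, and 2.28 and 2.61 at P0. Both P0 libraries lay below all others, with a fall of 0.68 (adjusted p = 0.0055) that was lost under quantile normalization (-0.01) and without P0 replicate 1 (adjusted p = 0.053).

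Kif21a and Kif21b, kinesin-4 motors that restrain microtubule growth, moved apart over the stages. Kif21a had 66.3 and 65.7 TPM at E12.5, 61.7 and 66.8 at E14, 48.98 and 48.4 at E15.5, 53.1 and 40.6 at E17, and 26.6 and 29.99 at P0, and it fell the most of the transport kinesins (log2 change -1.20, SE 0.12, adjusted p = 2.0e-06, limma). Kif21b had 162 and 187 TPM at E12.5, 206 and 201 at E14, 203 and 197 at E15.5, 300.2 and 163 at E17, and 149 and 164 at P0. Its E17 libraries were the farthest apart of any motor gene and overlapped those of the other stages, and its change to P0 did not pass (log2 change -0.16, SE 0.20, adjusted p = 0.49; with a median-of-ratios scaling it was 0.12). The log2 ratio of Kif21b to Kif21a rose by 1.04 (exact permutation test, adjusted p = 0.0169; 0.0635 without E12.5 replicate 1), with stage means of 1.39, 1.65, 2.02, 2.23 and 2.42 in order of age.

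Light chains join kinesin-1 to its cargo. Klc1 had 139 and 145 TPM at E12.5, 147 and 140.2 at E14, 193 and 196 at E15.5, 252 and 229 at E17, and 325 and 327 at P0. From E14 on each stage lay above the one before (log2 change to P0 1.20, SE 0.07, adjusted p = 3.3e-08, limma). Klc2 had 33.1 and 34.3 TPM at E12.5, 36.4 and 32.0 at E14, 39.6 and 40.6 at E15.5, 54.4 and 39.6 at E17, and 55.5 and 53.9 at P0 (log2 change 0.68, adjusted p = 4.6e-04). Klc4 went the other way, with 23.4 and 24.02 TPM at E12.5, 27.5 and 23.9 at E14, 21.2 and 20.9 at E15.5, 19.0 and 14.7 at E17, and 10.9 and 10.7 at P0 (log2 change -1.06, adjusted p = 9.1e-06). Klc1 thus went from 71.2% to 83.3% of the TPM of the 3 light chains and Klc4 from 11.9% to 2.77%. The fall of the log2 ratio of Klc2 to Klc1 by 0.51 passed with all libraries (exact permutation test, adjusted p = 0.0180) and was lost without either library of E12.5, E15.5 or P0 or without E14 replicate 1 (adjusted p between 0.0603 and 0.108).

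Of the other kinesins, Kif2a, a depolymerase that prunes axon collaterals, had 54.4 and 54.6 TPM at E12.5, 55.4 and 57.0 at E14, 69.8 and 74.7 at E15.5, 71.7 and 76.6 at E17, and 85.9 and 100.3 at P0. It rose (log2 change 0.76, adjusted p = 9.9e-06), in contrast to Kif2c of the same subfamily. Kif7, a kinesin of the cilium tip that regulates hedgehog signalling, had 6.59 and 7.21 TPM at E12.5, 6.59 and 6.35 at E14, 3.11 and 3.38 at E15.5, 4.14 and 2.64 at E17, and 2.22 and 2.33 at P0, a fall of 1.27 on the log2 scale (adjusted p = 9.4e-06). Kif26b, a kinesin without known motor activity, had 11.8 and 13.4 TPM at E12.5, 11.7 and 12.7 at E14, 12.3 and 12.7 at E15.5, 30.6 and 20.4 at E17, and 18.7 and 23.5 at P0. Its libraries fell into a low set up to E15.5 and a higher set after it, and the step from E15.5 to E17 passed with both E17 libraries (log2 change 0.95, adjusted p = 0.0029) and without E17 replicate 1 (0.66, adjusted p = 8.3e-04), but not with only the libraries of these stages (adjusted p = 0.076).

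In dynein-1, Dync1i1 changed most; it is one of the intermediate chains, which link the heavy chain to dynactin. Dync1i1 (chr6:5725639-6028039 on GRCm38), the chain enriched in neurons, had 5.66 and 6.38 TPM at E12.5, 14.6 and 12.9 at E14, 106 and 109.7 at E15.5, 123 and 117 at E17, and 147 and 162 at P0. No 2 stages overlapped, and the P0 mean was 25.6-fold above the E12.5 mean (log2 change 4.47, SE 0.10, adjusted p = 2.1e-11, limma). Of the steps only that from E15.5 to E17 did not pass (0.15). The step from E17 to P0 (0.36) lost its call without P0 replicate 2, with array weights and with only the libraries of its own stages. The step from E14 to E15.5 alone was 2.89 on the log2 scale. Dync1i2 (chr2:71211706-71263303), the broadly expressed chain, had 101 and 105 TPM at E12.5, 106 and 103 at E14, 122 and 121 at E15.5, 118 and 116 at E17, and 119.96 and 132 at P0, a rise of 0.28 (adjusted p = 0.0041).

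In TPM, Dync1i1 therefore went from a small part of the pair to the larger one. Which chain is larger where shares are near even depends on gene lengths that are not known. Its share of the TPM of both chains was 5.29% and 5.73% at E12.5, 12.1% and 11.1% at E14, 46.4% and 47.6% at E15.5, 51.0% and 50.2% at E17, and 55.0% and 55.0% at P0. The shares did not overlap between stages, and the log2 ratio rose by 4.18 from E12.5 to P0. The ratio differed over the 5 stages (exact permutation test, adjusted p = 0.00282, with the unadjusted p of 0.00106 the smallest these splits can give). The summed neuronal markers (8 of 10 in the table) were 2176 and 2209 TPM at E12.5, 2947 and 2834 at E14, and 5358 and 5456 at E15.5. In the step from E14 to E15.5, 6 of 8 were called higher (background 18.4% of all genes tested). From E12.5 to P0, 6 were called higher (background 27.1%) and 2, Tbr1 and Bcl11b, lower (background 51.0%). The part of the neuronal markers in the change of Dync1i1 was not tested.

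The other dynein-1 chains changed less than Dync1i1. Dync1li1 had 57.3 and 56.2 TPM at E12.5, 59.0 and 58.4 at E14, 73.3 and 76.2 at E15.5, 73.0 and 67.2 at E17, and 76.4 and 85.3 at P0 (log2 change 0.50, adjusted p = 1.6e-04). Dync1li2 is the other adaptor-binding light intermediate chain. It had 210.5 and 199 TPM at E12.5, 220.2 and 231 at E14, 205 and 214 at E15.5, 209 and 177 at E17, and 145 and 166 at P0. Its log2 change was -0.40 (limma, adjusted p = 0.0026), and under median-of-ratios scaling -0.12 (adjusted p = 0.22). Both P0 libraries of Dync1li2 lay below all others, and the log2 ratio of Dync1li1 to Dync1li2 rose by 0.90 (exact permutation test, adjusted p = 0.00635). The motor subunit itself, the heavy chain Dync1h1, had 19.7 and 23.0 TPM at E12.5, 18.6 and 21.8 at E14, 23.2 and 22.8 at E15.5, 50.0 and 30.9 at E17, and 27.0 and 28.7 at P0. Its level was highest at E17, with 0.75 over E15.5 on the log2 scale (adjusted p = 0.012; 0.41, adjusted p = 0.011, without E17 replicate 1). This call was lost without E15.5 replicate 1 (adjusted p = 0.075), without E15.5 replicate 2 (0.082) and with only the libraries of these stages (0.13). Its change from E12.5 to P0 of 0.37 did not pass (adjusted p = 0.075). The change to P0 passed in 6 of 21 alternatives, among them the fits without E17 replicate 1 or replicate 2 (adjusted p = 0.0011 in each).

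Of the dynein light chains, 2 are analysed here, and Dynll1, Dynlrb2 and the Dynlt genes are not. Dynll2, of the small LC8 type that many proteins besides dynein bind, was the most abundant of the 44 motor genes. Its stage means lay between 1907 ± 93.6 and 2162 ± 208 TPM (SD, n = 2). Its E12.5 and P0 libraries overlapped, and the log2 change from E12.5 to P0 was 0.06 (SE 0.10, adjusted p = 0.63, limma). Dynlrb1, a roadblock light chain, had 390.1 and 354 TPM at E12.5, 436 and 418 at E14, 545 and 587 at E15.5, 479.7 and 538 at E17, and 587 and 581 at P0, and it rose by 0.65 (adjusted p = 2.5e-05). Dynein-2 drives return transport inside cilia. Its heavy chain Dync2h1 had 4.29 and 4.19 TPM at E12.5, 3.27 and 3.83 at E14, 2.30 and 2.33 at E15.5, 4.35 and 2.74 at E17, and 1.92 and 2.49 at P0, a fall of 0.71 (adjusted p = 0.0017) that quantile normalization reduced to -0.05 (adjusted p = 0.71). Its light intermediate chain Dync2li1 had 24.9 and 24.01 TPM at E12.5, 23.7 and 23.1 at E14, 18.2 and 17.9 at E15.5, 18.3 and 19.6 at E17, and 20.9 and 19.3 at P0. The libraries up to E14 lay above all later ones, and the fall to P0 of 0.27 (adjusted p = 0.019) did not hold under median-of-ratios scaling (-0.01) and turned to 0.02 under quantile normalization. It also lost its call without E12.5 replicate 1 (adjusted p = 0.11), E12.5 replicate 2 (0.059) or P0 replicate 2 (0.078).

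Dynactin, the complex that makes dynein processive and ties it to cargo, rose modestly. From E12.5 to P0, 5 of its 6 genes rose (background 27.1% of all genes), none fell (background 51.0%), and the median log2 change was 0.47. Dctn1, whose product p150Glued binds dynein intermediate chains and microtubules, had 39.4 and 43.6 TPM at E12.5, 42.1 and 37.8 at E14, 44.9 and 46.2 at E15.5, 60.02 and 45.2 at E17, and 56.3 and 60.4 at P0 (log2 change 0.48, adjusted p = 0.0038). Dctn6, a subunit of the pointed end, rose the most, from 59.4 and 54.9 TPM at E12.5 to 113 and 105 at P0 (log2 change 0.92, adjusted p = 5.7e-07), with 62.8 and 67.3 at E14, 81.7 and 83.4 at E15.5 and 88.1 in both E17 libraries. Dctn3 had 126 and 123 TPM at E12.5, 143 and 131 at E14, 173 and 181 at E15.5, 165 and 174 at E17, and 183 and 167 at P0 (log2 change 0.48, adjusted p = 1.4e-04). Its rise was complete by E15.5, where that of Dctn6 went on. Dctn2 (dynamitin) rose by 0.46 and Dctn4 by 0.27, the latter not without E12.5 replicate 1 or P0 replicate 2 (adjusted p = 0.054 and 0.064). Dctn5 changed by 0.12 (adjusted p = 0.14; under median-of-ratios scaling 0.40, adjusted p = 0.0010), having been highest at E15.5 at 181 ± 9.45 TPM (SD, n = 2). With stage means of 40.0 to 58.4 TPM, Dctn1 was the lowest of the 6 at each stage.

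The Lis1 group split as sharply as the intermediate chains. Pafah1b1, which encodes Lis1, had 398 and 385 TPM at E12.5, 389 and 403 at E14, 459 and 475 at E15.5, 473 and 461 at E17, and 541 and 629 at P0, and it rose (log2 change 0.57, SE 0.08, adjusted p = 5.8e-05, limma). Nde1 (chr16:14163275-14192928 on GRCm38), which brings Lis1 to dynein, is needed for progenitor divisions and is mutated in microlissencephaly, had 199 and 209.9 TPM at E12.5, 157 and 158 at E14, 63.5 and 59.5 at E15.5, 47.7 and 35.9 at E17, and 15.3 and 14.7 at P0. Every stage lay below the one before, and the fall was 13.7-fold (log2 change -3.68, SE 0.11, adjusted p = 1.2e-10), inside the range of the mitotic kinesins. Ndel1, its paralog that acts in migrating neurons, had 47.2 and 47.1 TPM at E12.5, 51.6 and 53.0 at E14, 64.1 and 62.4 at E15.5, 74.6 and 60.3 at E17, and 85.7 and 78.9 at P0 (log2 change 0.79, adjusted p = 1.8e-05).

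Nde1 made up 81.3% ± 0.568 of the TPM of Nde1 and Ndel1 in the E12.5 libraries, 75.1% ± 0.311 in those of E14, 49.3% ± 0.699 in those of E15.5, 38.2% ± 1.19 in those of E17 and 15.4% ± 0.399 in those of P0 (SD, n = 2). The log2 ratio changed by -4.47 (exact permutation test, adjusted p = 0.00282, with the unadjusted p at its smallest). The steps of Nde1 were -0.37 from E12.5 to E14 (not passed), -1.34, -0.56 and -1.41, beside medians of -0.50, -1.30, -0.59 and -1.16 over the mitotic kinesins. Without E17 replicate 1 the last 2 steps of Nde1 were -0.76 and -1.21, and the earlier of them did not pass when E15.5 replicate 1 was left out (adjusted p = 0.062) or with only the libraries of its own stages (0.11). Nde1 is a microtubule motor regulator and not a kinesin, and its window shown above holds CCAAT matches and no CHR match.

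Adaptors that join motors to cargo were mixed. Of 13 in the table, 6 rose and 4 fell from E12.5 to P0, with a median log2 change of 0.25. Of all genes tested, 27.1% rose and 51.0% fell, with a median of -0.27. The extremes were Kifap3, the kinesin-2 adaptor, at 1.53 and Hook3, a dynein adaptor, at -0.85. Kifap3 went from 39.0 and 41.3 TPM at E12.5 to 108 and 128 at P0, and its kinesin-2 partners Kif3a, Kif3b and Kif3c all rose.

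By step, motor genes were called most often between E14 and E15.5, as were all genes tested. Counts without a library have no background beside them. From E12.5 to E14, 2 rose (Dync1i1 and Kif5a; background 3.95% of genes higher) and 6 fell, all mitotic kinesins (background 4.78% lower); without any one library of these stages a single motor gene passed. From E14 to E15.5, 17 rose (background 18.4%) and 14 fell (background 33.3%), with 7 and 11 without E15.5 replicate 2. The 17 that rose included 6 transport kinesins, 3 dynactin genes and 3 dynein-1 chains, and the 14 that fell included the 9 mitotic kinesins, Nde1, Kif7, Kif21a and both dynein-2 genes.

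After E15.5 the counts depended on single libraries, of E15.5 as well as of E17. Counts from other fits have no share of all genes beside them. They show only how the calls depended on the libraries and the scaling. From E15.5 to E17, 6 rose (background 14.4%) and 10 fell (background 10.6%), of which 8 were mitotic kinesins. Without E17 replicate 1 these counts were 4 and 14, and without E17 replicate 2 they were 17 and 10. For the transport kinesins, 3 rose and none fell with both E17 libraries, 1 rose and 2 fell without replicate 1 and 9 rose without replicate 2. The median over the transport kinesins was 0.20, -0.03 and 0.35 in the 3 fits. Without E15.5 replicate 1 or replicate 2 no transport kinesin passed in this step (limma; 3 and 3 had an unadjusted p under 0.05). From E17 to P0, 8 rose (background 12.9%) and 18 fell (background 28.8%), and the counts were 12 and 13 without E17 replicate 1 and 7 and 23 without E17 replicate 2. Median-of-ratios scaling moved this split to 16 and 14, and quantile normalization to 10 and 13. The fall of 9 of 9 mitotic kinesins in this step, and that of Nde1, were part of the 18.

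**Figure D4:**
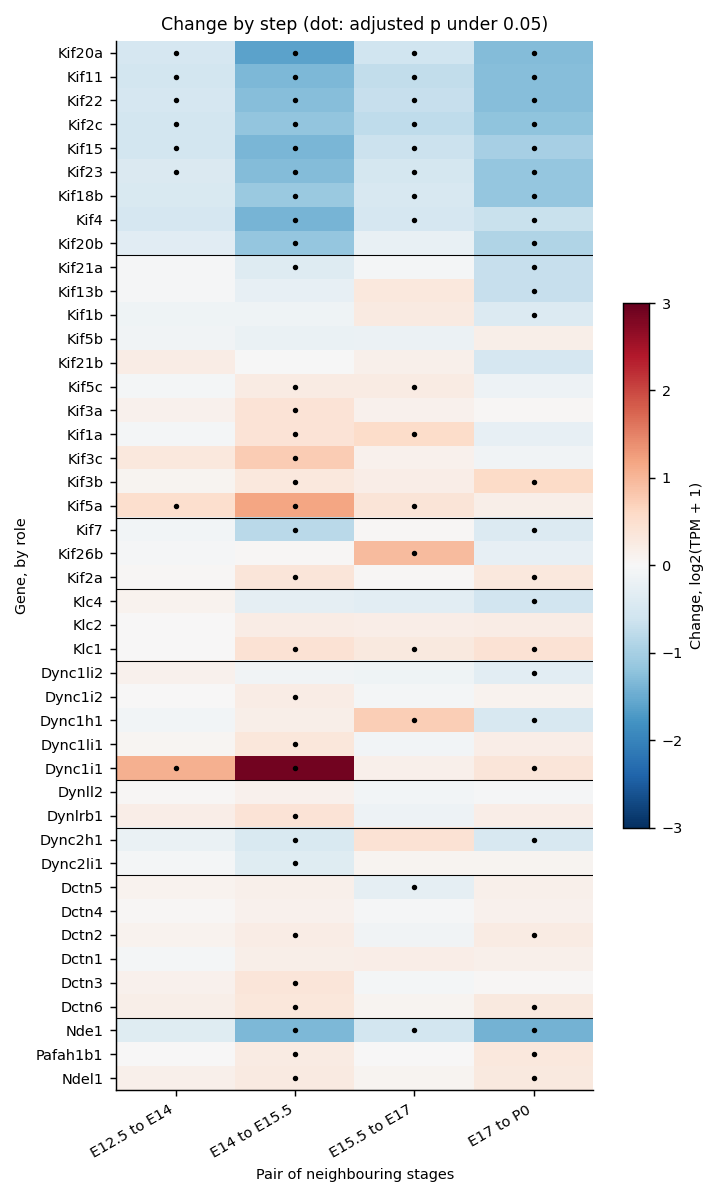
Change of each of the 44 motor genes between neighbouring stages, in log2(TPM + 1), grouped by role and ordered by the change from E12.5 to P0; red is higher and blue is lower at the later stage, and dots mark an adjusted p under 0.05. The mitotic kinesins and Nde1 are blue in every step, and the darkest red cell is Dync1i1 from E14 to E15.5 at 2.89.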

How the data were processed

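Per the labels' protocols, frozen neocortex was pulverised in detergent buffer, debris was spun down, and TRIzol LS and TruSeq Stranded mRNA kits gave the RNA and the libraries. Per the submitters' processing notes, STAR, Subread and the build GRCm38.p5 were used; the counting strand, gene lengths, annotation and the rule for the listed rows were not given in the sources used here. The authors deposited TPM, 1 column per library (0 columns without a sample). On this scale abundant genes that rise push the others down. Reads per library are unknown, so precision rests on the duplicates.

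Values were analysed as log2(TPM + 1), which understates changes of low genes, keeping genes whose mean reached 1 TPM. The main test was limma 3.58.1 (R 4.3.3), fitting each stage's mean across the 10 libraries, with 5 residual degrees of freedom, trended empirical Bayes moderation and Benjamini-Hochberg adjustment over 6048 genes; the median SE of a stage difference was 0.107. Log2 ratios of 8 pairs were tested with a two-sided exact permutation test of F over all ways to put the 10 libraries into 5 pairs, adjusted over the 8. It tests a difference over the 5 stages and not P0 against E12.5. Scripts were tested on simulated data. Positions and exon overlaps came from GENCODE M21 (GRCm38), promoters from RefSeq (GRCm38.p6).

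The members, roles and lists were chosen with earlier results of these data known, and lists are described by counts and medians only. Named with every library were, per role, the 2 largest rises and the 2 largest falls, both genes of each pair, Pafah1b1, Kif11, Dync1h1 and Dctn1; Kif20b and the other mitotic kinesins are given by range or stage. Alternatives covered the pseudocount (0.1 or 10 TPM), the filter (none, or 5 TPM), median-of-ratios scaling, quantile normalization, no variance trend, robust moderation, array weights, only the libraries of 2 stages, a replicate block and leaving out each library.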

Additional observations from a re-analysis of the deposited data

How the results depend on the processing

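Each count of motor genes was recomputed under the alternatives named for the processing. The share of all genes called is not set beside these counts, so they show only how the calls depended on the processing. The fall of all tested mitotic kinesins from E12.5 to P0 held in each (8 of 8 with a minimum mean of 5 TPM, which left out Kif20b, and 9 of 9 otherwise), and the counts of motor genes called over the 5 stages (37 to 43) and from E12.5 to P0 (36 to 41) stayed close to 41 and 40. From E12.5 to E14, 8 were called, 16 with array weights and 17 with only the libraries of these stages. From E15.5 to E17, 16 were called, 10 with array weights and 0 with only the libraries of these stages (limma; 16 had an unadjusted p under 0.05). From E17 to P0, 26 were called, and 15 both with array weights and with only the libraries of these stages.

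Leaving out one library moved the counts to between 1 and 15 in the step to E14, 18 and 35 in the step to E15.5, 4 and 27 in the step to E17, and 18 and 30 in the step to P0. The low values of the first step came when any one library of E12.5 or E14 was left out (1 each) and without either E15.5 library (4 each), the high one without either E17 library (15 each); the low value of the second step came without E15.5 replicate 2, and from E15.5 to E17 the counts were 4 and 7 without E15.5 replicates 1 and 2 and 27 without E17 replicate 2. The ratio of Kif21b to Kif21a changed by 0.93 to 1.15 and that of Klc2 to Klc1 by -0.54 to -0.49 without one library. The cause was not tested. Among single genes, the direction from E12.5 to P0 turned for Dync2li1 under quantile normalization (0.024), for Dynll2 without P0 replicate 2 (-0.012) and for Kif21b under median-of-ratios scaling (0.12), none of them called there; Dynll2 was called under median-of-ratios scaling (0.33, adjusted p = 0.034).

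Deviations of libraries with the same replicate number correlated between -0.37 and 0.11 over the 10 pairs of stages. At E17 and P0 the deviations also followed transcript length, so these correlations cannot decide whether the replicate numbers pair the libraries. With a replicate block, 40 motor genes were called over the 5 stages, 40 from E12.5 to P0 and 7, 31, 15 and 24 in the 4 steps in order of age, and the 8 ratios kept an adjusted p of at most 0.0333 (exact permutation test). With 2 libraries per stage and no read counts, changes of low genes such as Dync2h1, Kif13b and Kif7 are the least certain.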
